A study of Mus musculus with 14 samples.

Results

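Stromal cells sorted from the prostates of C57BL/6 mice were compared between 24 months of age (old, n = 3 libraries) and 3 months of age (young, n = 3 libraries) by RNA sequencing. The 6 libraries were chosen by their titles, out of 14 in the series, and every gene of the deposited tables (24054) was considered. The other 8 libraries hold Trop2-positive and Trop2-negative luminal epithelial cells of the same ages (n = 2 per sort and age) and serve here only to show where the stromal age change differs from theirs. No treatment, transgene or deletion is given for any group. The labels call the stromal libraries biological triplicates and do not describe the surface markers of the sort, the hour of collection or the animals behind each library, so p-values measure only the spread between these libraries.

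The prostatic stroma is the connective tissue around the glandular ducts, made mainly of fibroblasts and smooth muscle cells. Its fibroblasts secrete collagens, elastic fibres and the basement membrane on which the epithelium rests, and they answer androgen and send growth factors to the epithelial cells. Matrix proteins are folded in the endoplasmic reticulum (ER) with the help of chaperones and leave it in coated vesicles. The circadian clock is a feedback loop in which the activators ARNTL, CLOCK and NPAS2 switch on Per, Cry and other genes whose products then hold the activators back.

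The total of expected counts ran from 7162186 to 8926611 per stromal library, so that the floor of 3 counts lies at 0.336 to 0.419 CPM, the count scaled to a common library size. Levels below are CPM after TMM scaling unless they are called CPM of the total. No pair of libraries held identical values. Old library 3 lay farthest from the young libraries, and the first principal component, with 41.9% of the variance, placed all old libraries on one side (-38.4 to -10.8) and all young libraries on the other (17.6 to 30.9). Summed over 10 fibroblast markers, the level was 21100 to 24100 CPM of the total in young and 23700, 17300 and 10900 in old libraries 1, 2 and 3, against at most 184 in a luminal library. Col1a1, Col1a2 and Col3a1, all lowest in old library 3, made up most of that gap. Smooth muscle markers summed to 3510 CPM of the total in young library 3 and 4550 in old library 3, against 1750 to 2300 in the other 4. Luminal epithelial markers stayed between 114 and 279 CPM of the total, with at least 12600 in every luminal library, and the pan-leukocyte gene Ptprc stayed at or below 0.788. Macrophage markers summed to 16.9 to 25.9 CPM of the total in young and 28.0 to 45.2 in old libraries. T or NK cell markers summed to 13.2 to 16.3 and 18.4 to 24.5, in the same order. Neutrophil sums (23.8 to 43.7 and 33.6 to 51.6) and dendritic cell sums (26.9 to 34.6 and 25.5 to 35.4) overlapped between ages. In bulk RNA of this kind, fewer cells of a type and less RNA per cell cannot be told apart.

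**Figure D1:**
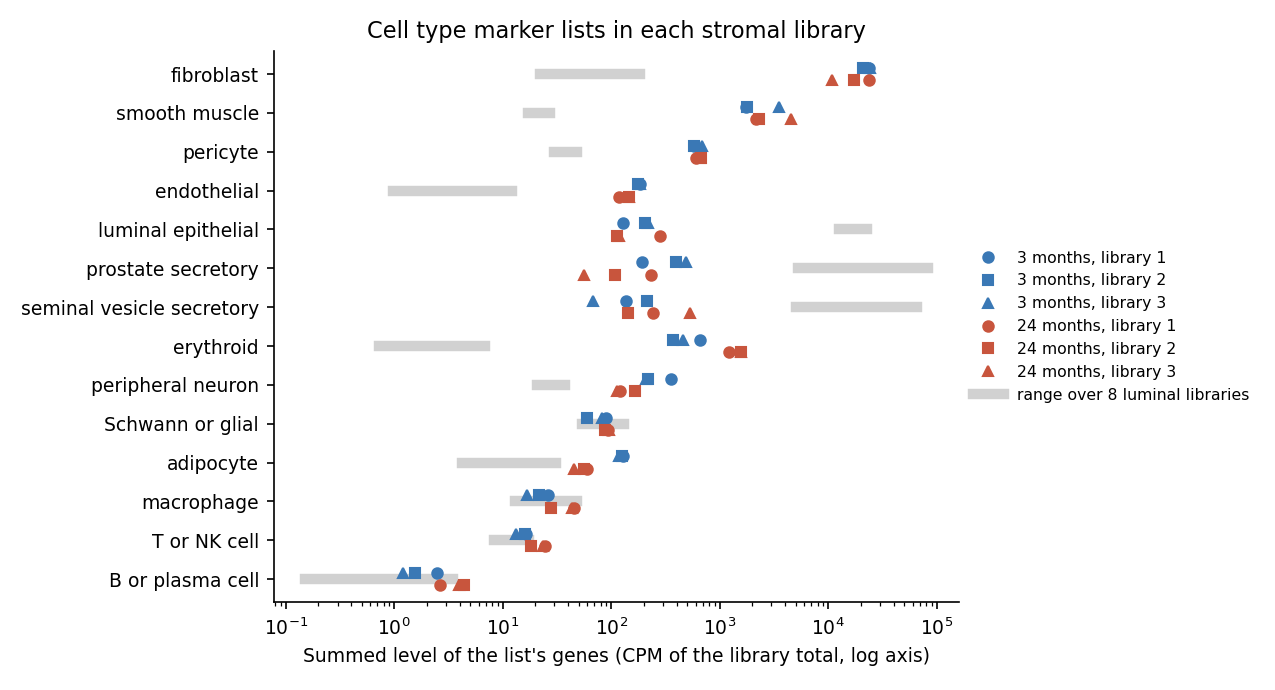
Summed level of marker genes of 14 cell types in each stromal library, in CPM of the library total on a log axis. Points are libraries, coloured by age and shaped by library number, and grey bars span the 8 luminal libraries. Fibroblast markers sit above 10000 in all 6 stromal libraries. The erythroid, macrophage, T or NK cell and B or plasma cell sums are higher in every old library than in every young library. The peripheral neuron, endothelial and adipocyte sums are lower in every old library than in every young library.

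Of 13890 genes tested, 662 (4.77%) had an adjusted p under 0.05 (edgeR, quasi-likelihood test, p adjusted by Benjamini and Hochberg over all genes), 345 (2.48%) higher and 317 (2.28%) lower in old cells. These shares are the background for every count of list members below. More than 2-fold changes numbered 153 upward and 89 downward. The old and young libraries did not overlap for any of the 662 genes, nor for 25.3% of all genes tested. Lack of overlap thus came with every call and, where given below for a called gene, adds nothing to the call. The higher share of calls was 52.1% here and 36.8% when TPM values were tested in place of counts. The number of calls was 346 without old library 1, 1089 without old library 2, 390 without old library 3, 370 without young library 1, 214 without young library 2 and 480 without young library 3. In every one of these 6 refits all 662 genes kept their sign, and 177 passed the test in all 6. A call that passed in all 6 refits is described below as held. A call described as lost missed the threshold in 1 or more refits, and the p given is the highest of the 6 unless another library is named.

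Eln, the gene of elastin, the extensible core of elastic fibres (chromosome 5, 134702595 to 134747368, GRCm38), was among the 15 largest named falls. It stood at 417, 475 and 579 CPM in young libraries 1, 2 and 3 and at 102, 66.6 and 70.4 CPM in old libraries 1, 2 and 3, a 6.15-fold fall (log2 change -2.62 ± 0.19, adjusted p = 2.3e-05; SE, n = 3 each). All 3 old libraries lay far below the lowest young library, with no overlap. Col4a1, a chain of the type IV collagen network of basement membranes (chromosome 8, 11198423 to 11312889), stood at 1416, 1996 and 1629 CPM in the young and 707, 777 and 536 CPM in the old libraries (-1.32 ± 0.18, adjusted p = 0.0012). Old library 3 was the lowest and the groups did not overlap.

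Stc1, which encodes the secreted glycoprotein stanniocalcin 1 (chromosome 14, 69029289 to 69041401), rose 5.49-fold, from 5.73, 4.31 and 6.45 CPM in the young to 31.8, 22.1 and 37.1 CPM in the old libraries (2.46 ± 0.23, adjusted p = 9.41e-05). Thy1, a lipid-anchored surface glycoprotein of fibroblasts that T cells and neurons also carry (chromosome 9, 44043384 to 44048579), rose from 74.1, 69.5 and 83.6 to 191, 198 and 235 CPM (1.46 ± 0.13, adjusted p = 5.22e-05). For both genes all 3 old libraries exceeded all 3 young libraries. Beside Thy1, the T-cell receptor chain gene Cd3e was listed at 0 in all young libraries and at no more than 0.263 CPM of the total in an old library, and the summed T or NK cell markers reached at most 24.5. The calls of Eln, Col4a1, Stc1 and Thy1 all held.

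**Figure D2:**
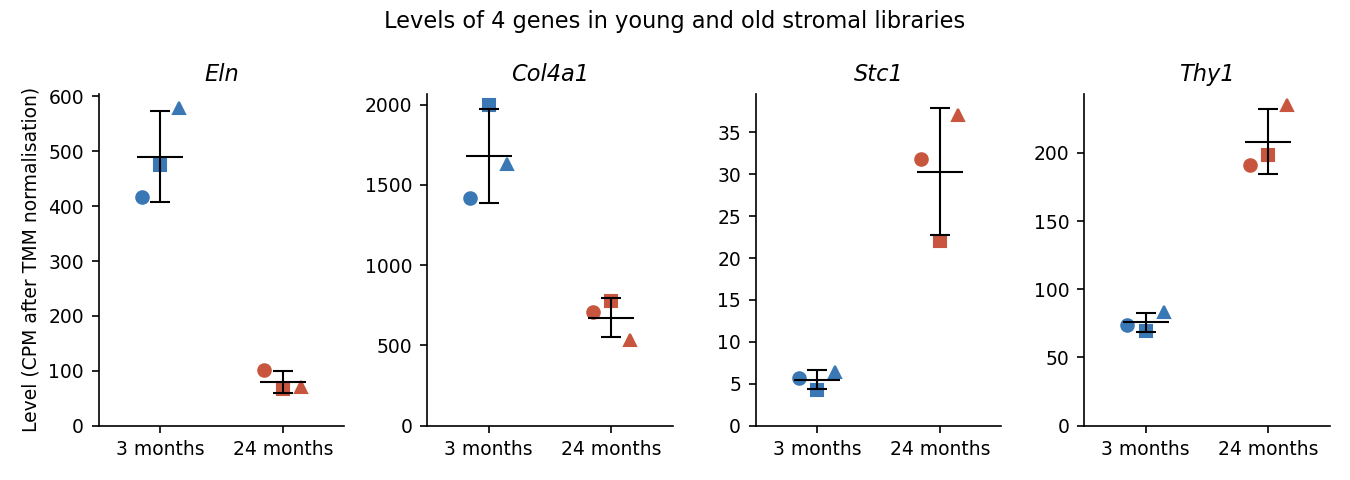
Levels of Eln, Col4a1, Stc1 and Thy1 in CPM after TMM normalisation, with 1 panel per gene and separate linear axes from 0. Symbols are libraries 1 (circle), 2 (square) and 3 (triangle) of each age, and the bars give the mean ± SD of 3 libraries. Old and young points do not overlap in any of the 4 panels.

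Elastic fibres are built on a scaffold of fibrillin microfibrils, with fibulins and lysyl oxidases that place and crosslink elastin. Of 22 such genes, all tested, 5 fell and 0 rose, with a median log2 change of -0.40 against -0.003 over all genes. Beside Eln these were Fbn1, the main fibrillin, at 2063, 2361 and 2303 CPM in young and 1364, 1043 and 710 CPM in old libraries (-1.11 ± 0.21, adjusted p = 0.0114). The others were Fbn2 (-0.70 ± 0.15, adjusted p = 0.0188), the elastin-binding fibulin Fbln5 (-0.64 ± 0.14, adjusted p = 0.0188) and the crosslinking enzyme Loxl2 (-0.62 ± 0.16, adjusted p = 0.0438). Old library 3 was the lowest of all for Fbn1, and the ages did not overlap. The fall of Eln held, while the others were lost without young library 2, with adjusted p of 0.0565 for Fbn1, 0.103 for Fbn2, 0.102 for Fbln5 and 0.174 for Loxl2. The list had 2 calls without old library 3, 3 without young library 3 and 1 without young library 2, and it had 1 when all 14 libraries were fitted together. Adamtsl2, whose product binds fibrillin microfibrils, fell from 23.6, 19.1 and 21.6 to 3.47, 3.56 and 3.80 CPM (-2.57 ± 0.19, adjusted p = 2.3e-05), and this call held. The microfibril gene Mfap2 (0.38 ± 0.22) and the latent TGF-beta binding protein gene Ltbp2 (0.75 ± 0.65) had positive values that did not pass the test (adjusted p = 0.356 and 0.603).

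Basement membrane genes were lower across several protein families. Of 20 genes, all tested, 12 fell and only Agrn, the proteoglycan agrin, rose, with a median log2 change of -0.70 against -0.003 over all genes. Type IV collagen chains led: beside Col4a1, Col4a2 went from 703, 896 and 857 CPM in young to 413, 429 and 306 CPM in old libraries (-1.10 ± 0.16, adjusted p = 0.00212). Col4a5 went from 502, 493 and 573 to 236, 304 and 289 CPM (-0.92 ± 0.14, adjusted p = 0.0026). All 3 old libraries lay below all 3 young libraries for both genes. Col4a3 also fell (-1.28 ± 0.23, adjusted p = 0.0188), whereas Col4a4 (-0.70 ± 0.20) and Col4a6 (-0.35 ± 0.14) did not pass (adjusted p = 0.0763 and 0.19).

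Among laminins, the trimers that organise the membrane, the beta 1 chain Lamb1 stood at 767, 854 and 849 CPM in young and 443, 526 and 490 CPM in old libraries (-0.76 ± 0.13, adjusted p = 0.00641). Lamc1, the gamma 1 chain, changed by -0.92 ± 0.18, adjusted p = 0.0146, Lama4 by -0.80 ± 0.17, adjusted p = 0.0195 and Lama2 by -0.59 ± 0.15, adjusted p = 0.0377. By contrast, Lama1 (0.12 ± 0.13), Lama5 (-0.02 ± 0.29) and Lamb2 (-0.17 ± 0.17) did not pass. The linker nidogen gene Nid1 (-0.69), the perlecan gene Hspg2 (-0.69), Col15a1 (-0.70) and the collagen-binding protein gene Sparc (-1.12) completed the 12. The calls of Col4a1, Col4a2 and Col4a5 held. The other 9 were lost in 1 or more refits, with the highest adjusted p in parentheses for Col4a3 (0.0721 without young library 1), Lamb1 (0.0559 without young library 2), Lamc1 (0.0864 without young library 2), Lama4 (0.0967 without young library 2), Lama2 (0.202 without old library 1), Nid1 (0.112 without young library 2), Hspg2 (0.123 without young library 2), Col15a1 (0.192 without old library 1) and Sparc (0.116 without young library 1). The list had 6 lower members without old library 1, 4 without young library 2, 7 without young library 3, and 6 when all 14 libraries were fitted together. Agrn (0.47 ± 0.12, adjusted p = 0.0429) was lost in 5 of the 6 refits, up to 0.137 without old library 3.

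Among 14 fibrillar and associated collagens, all tested, 5 fell and 0 rose, with a median of -0.76. Type VI collagen, which forms beaded filaments close to cells, contributed 3 of the 5. Col6a2 stood at 1538, 1476 and 1797 CPM in young and 717, 907 and 591 CPM in old libraries (-1.12 ± 0.17, adjusted p = 0.00278), and its call held. Col6a3 stood at 1890, 2140 and 2780 CPM (young) and 757, 1082 and 492 CPM (old; -1.55 ± 0.28, adjusted p = 0.0167). Col6a1 changed by -0.87 ± 0.17, adjusted p = 0.013, Col16a1 by -0.74 ± 0.15, adjusted p = 0.0125 and Col5a3 by -1.37 ± 0.24, adjusted p = 0.0188. The call of Col6a3 was lost without old library 1 (0.0614) and without young library 2 (0.0535), that of Col6a1 without old library 1 (0.0592), that of Col16a1 without young library 2 (0.0593), and that of Col5a3 without 4 of the libraries, with the highest adjusted p of 0.0796 without young library 1. The list had 2 lower members without young library 2, 1 when all 14 libraries were fitted together and 9 by DESeq2.

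The major fibrillar genes did not pass. Col1a1 stood at 4653, 4014 and 5213 CPM in young libraries 1, 2 and 3 and at 5204, 2568 and 1150 CPM in old libraries 1, 2 and 3 (-0.64 ± 0.55, adjusted p = 0.593). Old library 1 lay within the young range and old library 3 far below it. Col3a1 stood at 6363, 5430 and 6906 CPM (young) and 7420, 3358 and 1493 CPM (old; -0.61 ± 0.59, adjusted p = 0.64), with old library 1 above and old libraries 2 and 3 below every young library. Genes for making and crosslinking collagen were lower in part: of 19, all tested, 3 fell and 0 rose. The collagen chaperone gene Serpinh1 went from 1104, 1201 and 930 to 431, 493 and 286 CPM (-1.42 ± 0.19, adjusted p = 0.00174). The prolyl hydroxylase gene P4ha1 went from 152, 160 and 119 to 78.8, 84.8 and 69 CPM (-0.89 ± 0.14, adjusted p = 0.00263), and the lysyl hydroxylase gene Plod1 changed by -0.59 ± 0.13, adjusted p = 0.0239. The first pair of calls held, and that of Plod1 reached 0.12 without young library 2.

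**Figure D3:**
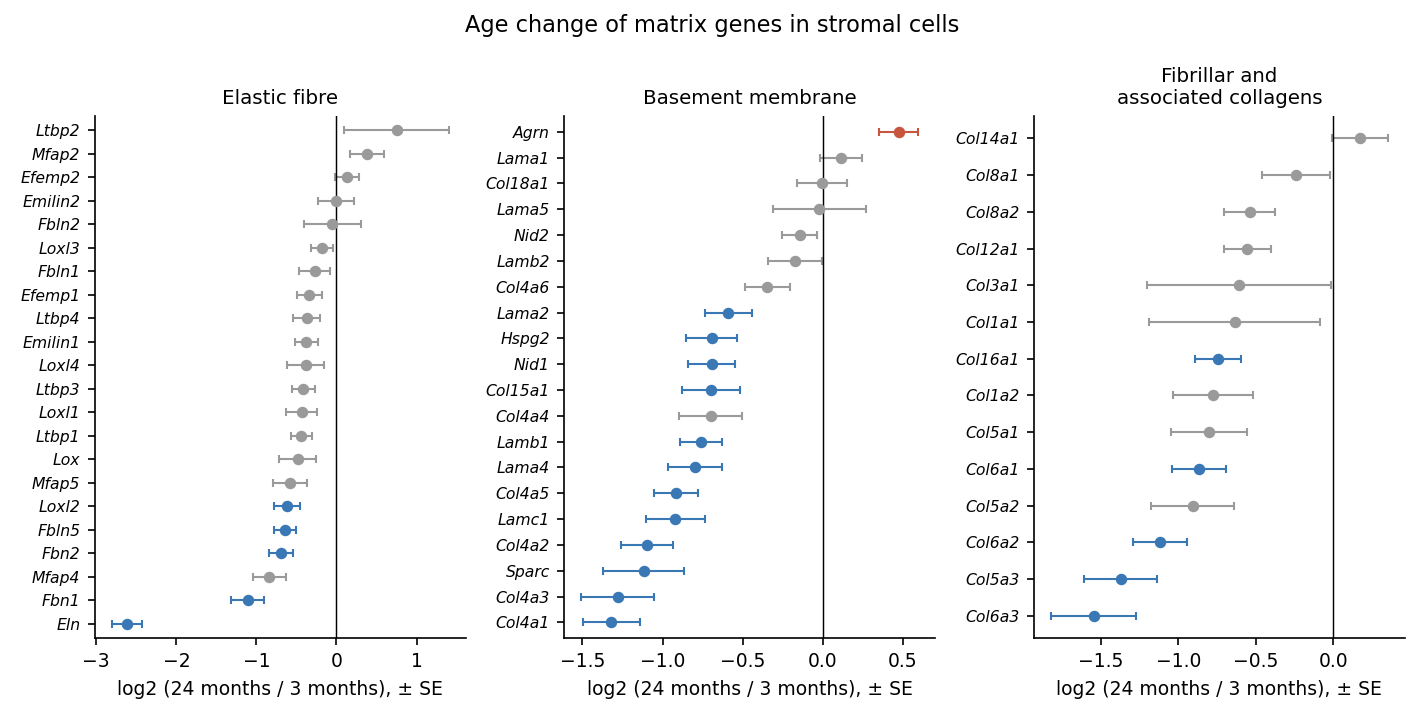
Log2 age change ± SE (old over young, 3 against 3 libraries) of every tested member of 3 matrix gene lists. Blue points fell and the red point rose at an adjusted p under 0.05, and grey points did not pass. Most points lie left of 0, with Eln farthest left at -2.62 and Agrn the only red point.

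Other secreted matrix proteins gave 3 falls and 0 rises among 25 tested of 27 proteoglycan and matricellular genes. The small proteoglycan asporin, Aspn, fell from 78.7, 82.5 and 98.9 CPM in young to 23.1, 34.8 and 32.8 CPM in old libraries (-1.52 ± 0.16, adjusted p = 0.000276), and this call held. Postn, periostin, changed by -0.82 ± 0.17, adjusted p = 0.0171 and Ogn, osteoglycin, by -0.60 ± 0.13, adjusted p = 0.0218. Both were lost in refits, Postn up to 0.0777 without young library 2 and Ogn up to 0.118 without old library 1. The decorin gene Dcn stood at 3669, 3814 and 3888 CPM in young and 3631, 4367 and 3378 CPM in old libraries (0.00 ± 0.16, adjusted p = 0.998). Spon2, a secreted matrix protein gene, fell from 80.2, 96.6 and 80.4 to 26.3, 16.3 and 15.7 CPM (-2.14 ± 0.19, adjusted p = 0.000128), with no overlap, and held.

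Of 23 tested matrix proteases and inhibitors, Adamts12 (-0.88 ± 0.14, adjusted p = 0.00298) and the membrane protease gene Mmp16 (-0.83 ± 0.19, adjusted p = 0.0226) fell and the protease inhibitor gene Timp3 (0.61 ± 0.16, adjusted p = 0.046) rose. Only the call of Adamts12 held, with Mmp16 at 0.0962 without old library 1 and Timp3 at 0.173 without young library 2. Among 18 integrins, the collagen receptor subunit Itga11 (-0.98 ± 0.15, adjusted p = 0.00274) and Itgb5 (-0.79 ± 0.13, adjusted p = 0.00438) fell, and both calls held. Mmp2, the main gelatinase of fibroblasts, stood at 892, 803 and 946 CPM in young and 928, 949 and 743 CPM in old libraries (-0.01 ± 0.15, adjusted p = 0.977).

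Several chaperones and folding enzymes of the ER fell. Of 22 genes of the unfolded protein response, the programme that adjusts folding capacity to load, all tested, 9 fell and 0 rose, with a median log2 change of -0.54 against -0.003 over all genes. Hsp90b1, the ER form of the HSP90 chaperone, stood at 1118, 1197 and 892 CPM in young and 526, 610 and 481 CPM in old libraries (-0.99 ± 0.16, adjusted p = 0.00306). Pdia6, a disulfide isomerase, stood at 198, 236 and 164 CPM (young) and 96.5, 104 and 73.8 CPM (old; -1.12 ± 0.16, adjusted p = 0.00231). Pdia4, another isomerase, stood at 266, 301 and 215 CPM (young) and 137, 157 and 108 CPM (old; -0.96 ± 0.16, adjusted p = 0.00532). In each case the lowest young library exceeded the highest old library, and young library 3 was the lowest of the young.

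Sdf2l1 and Creld2, small ER proteins induced when folding is overloaded, showed the largest falls of the list. Sdf2l1 went from 18.5, 20.8 and 9.12 to 4.18, 3.19 and 1.84 CPM (-2.38 ± 0.36, adjusted p = 0.00566) and Creld2 from 66.8, 75.5 and 34.9 to 18.2, 18.8 and 11.5 CPM (-1.87 ± 0.33, adjusted p = 0.0288). Dnajc3 (-0.77 ± 0.13, adjusted p = 0.00364), Hyou1 (-1.48 ± 0.27, adjusted p = 0.0277), the lectin chaperone gene Calr (-0.65 ± 0.14, adjusted p = 0.0191) and the isomerase gene Pdia3 (-0.65 ± 0.14, adjusted p = 0.0215) made up the 9. The central chaperone gene Hspa5 was not among them, at 2329, 2152 and 1344 CPM in young and 1350, 1261 and 1426 CPM in old libraries (-0.53 ± 0.19, adjusted p = 0.14), with young library 3 within the old range. The stress factors Atf4 (0.31 ± 0.15), Ddit3 (0.53 ± 0.21) and Xbp1 (-0.38 ± 0.13) did not pass (adjusted p = 0.25, 0.179 and 0.106). The calls of Hsp90b1, Pdia6, Pdia4, Sdf2l1 and Dnajc3 held. Creld2 reached 0.109 without old library 1, Hyou1 0.102 without young library 1, Calr 0.138 and Pdia3 0.126 without young library 2. The list had 5 lower members without old library 1, 5 without old library 3, 6 without young library 2 and 10 when all 14 libraries were fitted together.

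In the luminal sorts, from 1 fit of all 14 libraries, Hsp90b1 had a value of -0.97 ± 0.18 (log2) in Trop2-negative and -0.55 ± 0.18 in Trop2-positive cells. Values were -1.15 ± 0.20 and -0.71 ± 0.20 for Pdia4, -1.46 ± 0.41 and -0.89 ± 0.40 for Creld2, and -1.15 ± 0.31 and -0.60 ± 0.32 for Sdf2l1, in the same order. All 4 had negative values in every sort. In Trop2-negative cells Hsp90b1 and Pdia4 passed (adjusted p = 0.00933 and 0.00617), and Creld2 and Sdf2l1 did not (0.0828 and 0.0587). Calr (0.00475), Pdia3 (0.0327), Pdia6 (0.0131), Dnajc3 (0.00267) and Hspa5 (0.023) also passed there, and Hyou1 did not (0.166). In Trop2-positive cells no gene of the list passed, with the lowest adjusted p for Dnajc3 (0.0548). The stromal change minus the mean luminal change did not pass for Hsp90b1, Pdia4, Creld2 or Sdf2l1, with the lowest adjusted p for Sdf2l1 at -1.51 ± 0.40 (adjusted p = 0.0916).

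Promoters of the list were read because several of its genes are known targets of the factors ATF6 and XBP1. The windows came from RefSeq (GRCm38.p6, 250 bases before to 50 after each transcription start) and covered 8 of the 9 genes that fell, all but Hyou1, and 11 that did not pass. The ER stress element was searched as CCAAT followed after 9 bases by CCACG on both strands, where the reverse reads CGTGG, 9 bases and ATTGG. It was found in 0.119% of all 32851 promoter windows, or in 0.137% of 27025 genes when any window of a gene counts. On the list, by the same count per gene, it was found in 5 of the 8 genes that fell and in 2 of the 11 that did not pass (Hspa5 and Canx). The stretches that hold it in the 5 genes that fell are printed with its outer parts in capitals. Negative values were common in the list (17 of 22), and Hspa5 (-0.53 ± 0.19) and Canx (-0.47 ± 0.13, adjusted p = 0.0516) were negative as well. Whether the element goes with the fall was not tested. A match describes the letters only, and no binding was measured.
Pdia6 (chr12:17266441-17266559, plus strand): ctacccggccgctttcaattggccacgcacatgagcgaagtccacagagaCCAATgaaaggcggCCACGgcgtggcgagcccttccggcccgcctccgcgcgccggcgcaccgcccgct
Dnajc3 (chr14:118937777-118937895, plus strand): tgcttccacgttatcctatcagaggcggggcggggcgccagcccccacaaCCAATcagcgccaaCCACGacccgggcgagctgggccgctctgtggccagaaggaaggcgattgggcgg
Hsp90b1 (chr10:86705483-86705694, minus strand): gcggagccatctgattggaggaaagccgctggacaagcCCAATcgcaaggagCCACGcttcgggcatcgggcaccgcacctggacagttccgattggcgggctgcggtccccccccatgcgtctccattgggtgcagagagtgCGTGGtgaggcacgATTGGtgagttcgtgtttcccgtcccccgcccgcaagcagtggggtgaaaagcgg
Calr (chr8:84847025-84847143, minus strand): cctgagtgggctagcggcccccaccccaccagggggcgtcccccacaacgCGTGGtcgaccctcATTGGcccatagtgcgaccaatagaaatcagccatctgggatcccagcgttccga
Creld2 (chr15:88819470-88819588, plus strand): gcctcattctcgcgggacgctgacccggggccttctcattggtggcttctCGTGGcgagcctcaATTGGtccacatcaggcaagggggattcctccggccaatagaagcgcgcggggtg
The element lies in the same orientation in Pdia6 and Dnajc3, reversed in Calr and Creld2, and in both orientations in Hsp90b1. Its first base stands 98 bases before the start in Pdia6, 105 in Dnajc3, 126 in Creld2 and 162 in Calr, and the 2 matches of Hsp90b1 begin 212 and 107 bases before it.

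Genes that carry proteins into the ER, glycosylate them there and export them were gathered in a list of 47 after the values had been seen, so its count is a description only. Of these 19 fell and 0 rose, with a median of -0.41 and 45 of 47 values negative. They include the oligosaccharyltransferase subunits Rpn1 (-0.75 ± 0.15, adjusted p = 0.0161) and Ostc (-0.92 ± 0.21, adjusted p = 0.0361), the vesicle coat genes Sec24a (-0.60 ± 0.12, adjusted p = 0.0112) and Sec24d (-0.62 ± 0.12, adjusted p = 0.0129), and the transcription factor Creb3l1 (-0.63 ± 0.12, adjusted p = 0.0114), which is known to drive secretory genes in matrix-producing cells. Sec24d stood at 167, 201 and 198 CPM in young and 123, 133 and 111 CPM in old libraries, without overlap. The translocon gene Sec61a1 did not pass (-0.35 ± 0.13, adjusted p = 0.138). The calls were lost in refits, with the highest adjusted p in parentheses for Rpn1 (0.0874 without young library 2), Ostc (0.124 without young library 2), Sec24a (0.0796 without young library 2), Sec24d (0.086 without young library 2) and Creb3l1 (0.0794 without young library 2). The count was 5 without old library 1, 7 without old library 3, 7 without young library 1, 12 without young library 3 and 0 without young library 2, where the median was -0.39, and 9 when all 14 libraries were fitted together.

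**Figure D4:**
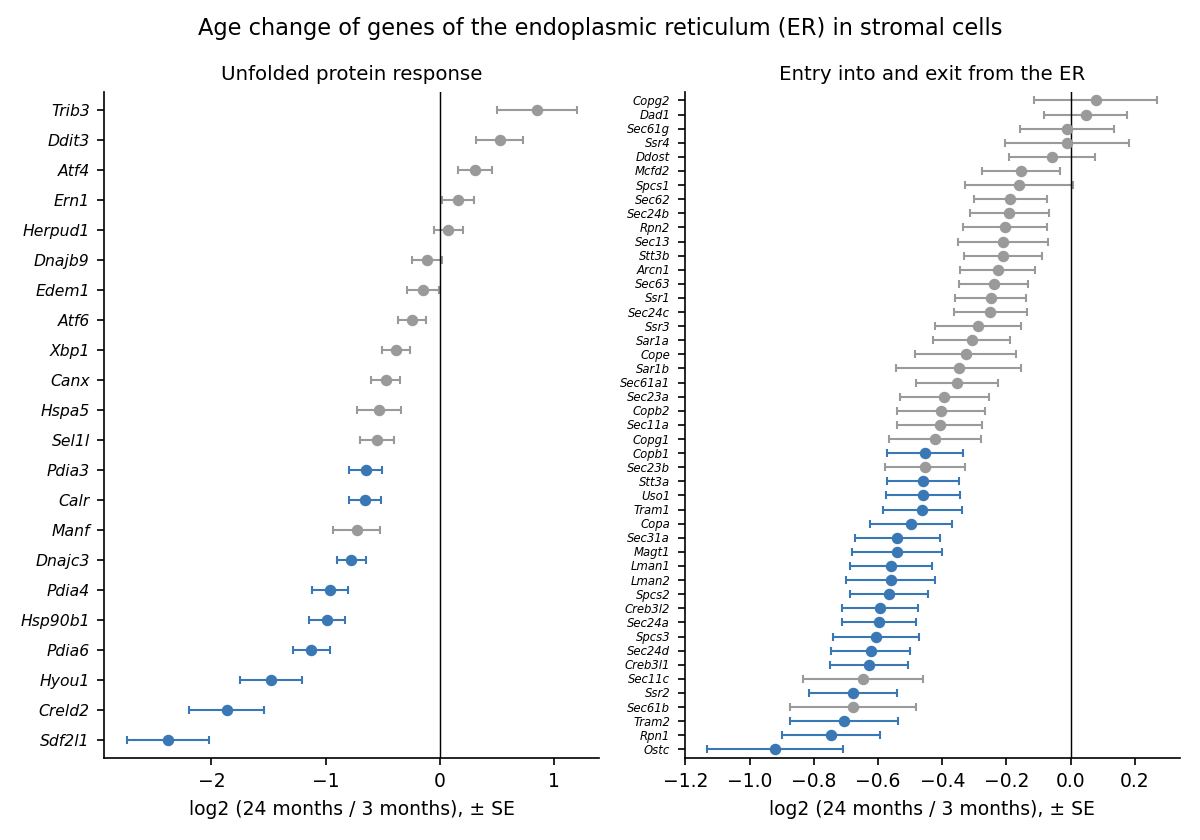
Log2 age change ± SE of every member of the unfolded protein response list and of the list for entry into and exit from the ER. Blue points fell at an adjusted p under 0.05 and grey points did not pass. No member of either list rose past the threshold, and Sdf2l1 has the lowest value at -2.38.

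Circadian clock genes changed in both directions. The hour at which tissue was collected is not stated in the labels. Age and hour therefore cannot be told apart, for these genes or for any other gene of the comparison. Of 18 tested, 3 fell, all activators of the loop, and 6 rose, all from its repressing or output arms. Npas2 (chromosome 1, 39193702 to 39363240) stood at 41.1, 46.6 and 33.1 CPM in young and 6.93, 7.11 and 9.44 CPM in old libraries, a 5.15-fold fall (-2.36 ± 0.18, adjusted p = 2.3e-05). Arntl, the shared partner of both other activators (chromosome 7, 113178471 to 113314126), stood at 56.1, 65.7 and 47.7 CPM (young) and 21.8, 14 and 15 CPM (old; -1.74 ± 0.18, adjusted p = 0.000288). Clock stood at 134, 140 and 121 CPM (young) and 64.2, 71.5 and 71.5 CPM (old; -0.93 ± 0.11, adjusted p = 0.000666). All 3 old libraries were below all 3 young libraries for each activator.

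The period gene Per3 stood at 21, 10.6 and 13.7 CPM in young and 46.1, 51.2 and 46.2 CPM in old libraries (1.65 ± 0.20, adjusted p = 0.0012). Per2 stood at 68.2, 51.5 and 46.2 CPM (young) and 120, 123 and 101 CPM (old; 1.05 ± 0.15, adjusted p = 0.00174). Ciart, a repressor of the activators, stood at 3.46, 2.87 and 1.68 CPM (young) and 9.32, 8.34 and 12.1 CPM (old; 1.86 ± 0.29, adjusted p = 0.0028). The output factor genes Hlf (1.70 ± 0.23, adjusted p = 0.00364) and Tef (1.21 ± 0.18, adjusted p = 0.00516) and the repressor gene Cry2 (0.70 ± 0.17, adjusted p = 0.0377) also rose. Dbp, the third of the related output factors, had a larger value that did not pass, at 22.5, 5.45 and 35.2 CPM in young and 78.3, 135 and 116 CPM in old libraries (2.38 ± 0.68, adjusted p = 0.161). Per1 (0.37 ± 0.12), Cry1 (0.29 ± 0.15), Nr1d1 (0.28 ± 0.32) and Bhlhe40 (-0.03 ± 0.17) did not pass. The calls of Npas2, Arntl, Clock, Per2, Per3, Ciart, Hlf and Tef held, and only Cry2 was lost, up to 0.165 without young library 2. Without each library in turn the list had 5 to 8 higher and 3 lower members, with 8 higher without young library 3.

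The luminal sorts are given beside these values from 1 fit of all 14 libraries. The log2 value of Npas2 was -1.54 ± 0.38 in Trop2-negative and -2.0 ± 0.36 in Trop2-positive luminal cells, and that of Arntl -0.33 ± 0.24 and -1.23 ± 0.25. Per3 had 1.04 ± 0.27 and 0.86 ± 0.26 and Tef had 0.57 ± 0.21 and 1.06 ± 0.22 in the same sorts. Npas2 passed in both luminal sorts (adjusted p = 0.0366 and 0.0206). Per3 passed in Trop2-negative cells (0.0467), and Arntl (0.037) and Tef (0.0391) in Trop2-positive cells. Clock, Per2, Cry2, Hlf and Ciart passed in neither. Bhlhe40, which did not pass in stroma, rose in Trop2-negative cells (1.11 ± 0.21, adjusted p = 0.00927). The stromal change minus the mean luminal change was -0.61 ± 0.38 for Npas2 (adjusted p = 0.575), -0.97 ± 0.26 for Arntl (0.0897) and -0.69 ± 0.18 for Clock (0.0802), so none passed. No other tested gene of the list passed this test of the difference.

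**Figure D5:**
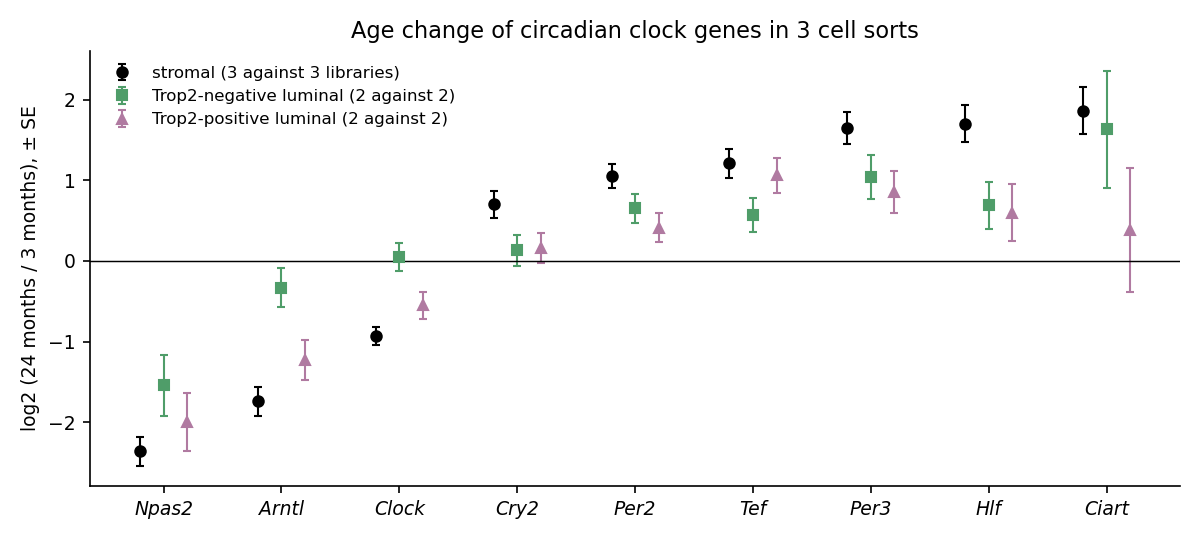
Log2 age change ± SE of the 9 circadian clock genes that passed the stromal test, in stromal cells (circles) and in the Trop2-negative (squares) and Trop2-positive (triangles) luminal sorts. Npas2 is below 0 and Per3 above 0 in all 3 sorts, while Clock lies near 0, at 0.05, in Trop2-negative cells.

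Promoter windows of 5 of the 6 genes that rose (all but Per2) and of the 3 that fell were searched on both strands for 3 clock motifs: the E-box CACGTG, bound by ARNTL with CLOCK or NPAS2, the D-box TTATGTAA, bound by DBP, TEF and HLF, and TAGGTCA, the core bound by ROR and REV-ERB receptors. The E-box was found in 7.15% of all windows, the D-box in 0.938% and TAGGTCA in 2.61%. Counted per gene, as for the list below, the shares were 8.09%, 1.11% and 2.97%. Among the genes that rose, Ciart and Tef hold E-boxes and Per3 holds D-boxes. Among those that fell, none holds an E-box or a D-box and Arntl holds TAGGTCA. Of 8 genes that did not pass, 3 hold an E-box (Per1, Cry1 and Bhlhe41), against 2 of 5 that rose, and Nfil3 holds TAGGTCA. The motifs do not overlap each other in the stretches printed here, which show them in capitals and are given because these motifs are the ones through which the loop is known to act.
Ciart (chr3:95882229-95882394, minus strand): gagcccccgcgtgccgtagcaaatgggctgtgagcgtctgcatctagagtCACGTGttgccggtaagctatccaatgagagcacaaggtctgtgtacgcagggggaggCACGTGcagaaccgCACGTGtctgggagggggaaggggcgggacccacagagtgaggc
Tef (chr15:81802496-81802601, plus strand): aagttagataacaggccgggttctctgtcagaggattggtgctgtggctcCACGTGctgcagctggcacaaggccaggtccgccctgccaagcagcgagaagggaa
Tef (chr15:81811226-81811331, plus strand): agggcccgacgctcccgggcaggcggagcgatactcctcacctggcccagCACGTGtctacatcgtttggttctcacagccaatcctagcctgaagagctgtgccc
Per3 (chr4:151044766-151044915, minus strand): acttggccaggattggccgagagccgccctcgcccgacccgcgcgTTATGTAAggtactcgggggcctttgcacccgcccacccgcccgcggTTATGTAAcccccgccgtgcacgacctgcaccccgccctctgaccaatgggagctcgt
Arntl (chr7:113207531-113207557, plus strand): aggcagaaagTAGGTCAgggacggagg
Ciart has 3 E-boxes in its window, Per3 has 2 D-boxes, and the pair of Tef stretches come from its 2 alternative starts. The match of Arntl lies after the start of transcription. No match in a window says only that these letters are not there.

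Most tested genes on a list of peripheral neuron markers had lower values in old libraries. The list was written after the values had been seen, and Ret and Nos1 had already been named among the largest falls, so the count is a description. Of 17 tested of 22 genes, 10 fell and 0 rose, with a median of -1.41. The summed level was 358, 219 and 210 CPM of the total in young libraries 1, 2 and 3 and 121, 167 and 112 in old libraries 1, 2 and 3. Ret, the receptor of glial cell line-derived neurotrophic factors, stood at 20.2, 15.8 and 14.4 CPM in young and 2.63, 3.31 and 2.1 CPM in old libraries (-2.64 ± 0.24, adjusted p = 7.29e-05). Ret was also read in every luminal library, at levels given below, so its level alone does not mark neurons here. Crmp1, a protein of growing axons, stood at 20.1, 16.4 and 13.7 CPM (young) and 2.39, 5.52 and 2.23 CPM (old; -2.30 ± 0.31, adjusted p = 0.00198). Nos1, the neuronal nitric oxide synthase, stood at 12.6, 5.02 and 3.51 CPM (young) and 0.956, 0.245 and 0 CPM (old; adjusted p = 0.036). Old libraries 2 and 3 were under the floor of 3 counts for Nos1, so no fold is given. Young library 1 was the highest for all 3 genes, and the groups did not overlap.

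The other falls on this list included Chgb, a protein of secretory granules (-3.04 ± 0.56, adjusted p = 0.00952), the noradrenaline-making enzyme gene Dbh (-2.14 ± 0.54, adjusted p = 0.042), Stmn4 (-1.88 ± 0.29, adjusted p = 0.00287), Syt4 (-2.27 ± 0.54, adjusted p = 0.0334), Calb2 (-1.75 ± 0.37, adjusted p = 0.0452) and Tac1 (-0.85 ± 0.22, adjusted p = 0.0391). Stmn2 did not pass (0.15 ± 0.41, adjusted p = 0.875), nor did Prph (-0.59 ± 0.32, adjusted p = 0.357). The calls of Ret, Crmp1, Chgb and Stmn4 held, and others were lost, with the highest adjusted p in parentheses for Nos1 (0.102 without old library 2), Dbh (0.163 without young library 1), Syt4 (0.138 without young library 1), Calb2 (0.152 without young library 2) and Tac1 (0.172 without young library 2). The list had 5 lower members without old library 1, 4 without old library 3, 5 without young library 1, 4 without young library 2, 6 at a mean of at least 5 CPM and 4 when all 14 libraries were fitted together. The median was -0.87 without young library 1, the library with the highest sum, and -0.83 at a mean of at least 5 CPM. The Schwann cell and glial markers summed to 59.2 to 89.4 CPM of the total in young and 88.2 to 95.7 in old libraries. Of the genes for axon guidance and growth, 31 tested, Bdnf (1.74 ± 0.34, adjusted p = 0.0125) and Sema3a (1.48 ± 0.33, adjusted p = 0.023) rose and 0 fell, Bdnf held, and Sema3a was lost up to 0.107 without young library 2.

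Haemoglobin genes were higher in old libraries. In a list of erythroid genes also written after the values had been seen, 5 of 9 tested rose and 0 fell. Hba-a1 stood at 361, 220 and 293 CPM in young and 707, 933 and 876 CPM in old libraries (1.52 ± 0.18, adjusted p = 0.000754). Hbb-b1 stood at 132, 73.3 and 68.3 CPM (young) and 279, 356 and 468 CPM (old; 2.00 ± 0.32, adjusted p = 0.0209). Alas2, the first enzyme of haem synthesis in red cells, stood at 15.8, 11.2 and 12.2 CPM (young) and 30.7, 33.6 and 37.6 CPM (old; 1.37 ± 0.16, adjusted p = 0.000653). Hbb-b2 and Hbb-bt, the remaining pair, have identical values in every library and nearly identical sequences, so that their reads cannot be told apart. The list summed, as CPM of the total, to 664, 375 and 463 in young and 1220, 1570 and 1570 in old libraries 1, 2 and 3, against 0.727 to 6.86 in the luminal libraries. The call of Hbb-b1 was lost without young library 2 (0.0535) and without old library 2 (0.0527), and the others held. What these transcripts contribute to the other age changes was not tested.

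Among the named increases was Selp, the adhesion receptor P-selectin of platelets and endothelium, at 0.108, 0.287 and 0.140 CPM in young and 2.99, 5.15 and 9.57 CPM in old libraries (adjusted p = 0.000858). All 3 young libraries were under the floor of 3 counts, so no fold is given, and the gene met the 5 CPM minimum through the old libraries alone. Beside it, the summed endothelial markers were 177 to 184 CPM of the total in young and 118 to 147 in old libraries. Vwc2, a secreted BMP antagonist gene, stood at 0.216, 0.718 and 1.68 CPM (young) and 5.62, 7.48 and 6.82 CPM (old; 2.97 ± 0.47, adjusted p = 0.00341). Sntg1, a syntrophin, stood at 3.03, 5.02 and 1.82 CPM (young) and 26.7, 21.6 and 13.6 CPM (old; 2.65 ± 0.35, adjusted p = 0.0028). Mdga2, a membrane-anchored adhesion protein, stood at 3.78, 2.44 and 2.24 CPM (young) and 15.2, 14.7 and 16.4 CPM (old; 2.42 ± 0.24, adjusted p = 0.000128). Lack of overlap between ages was a condition for naming these increases. Vwc2, Sntg1 and Mdga2 also met the 5 CPM minimum through the old libraries alone. All 4 calls held, and young library 1 was under the floor for Vwc2.

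Trank1 (1.88 ± 0.15, adjusted p = 2.3e-05), the kinesin gene Kif26b (2.12 ± 0.21, adjusted p = 0.000128), Csmd1 (1.33 ± 0.11, adjusted p = 5.22e-05), the glutathione transferase gene Gsta3 (2.13 ± 0.23, adjusted p = 0.000267), the interferon-inducible GTPase gene Gbp4 (2.13 ± 0.33, adjusted p = 0.00287), Dach2 (2.41 ± 0.37, adjusted p = 0.0187), Rapgef5 (2.20 ± 0.31, adjusted p = 0.00174), Rasgrf1 (2.1 ± 0.45, adjusted p = 0.0238), the prostaglandin E receptor gene Ptger3 (1.96 ± 0.29, adjusted p = 0.00255) and Fndc3c1 (1.91 ± 0.32, adjusted p = 0.0048) were also among the named increases. Of these, Dach2 was lost without young library 1 (0.0839) and Rasgrf1 without 4 of the libraries, up to 0.0692 without old library 1, and the others held.

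Apart from matrix, ER, clock and neuronal genes, the largest falls were in the kinase gene Nrk (-2.42 ± 0.31, adjusted p = 0.000858), the histone gene Hist1h2bg (-2.32 ± 0.44, adjusted p = 0.00952), Fam150b (-1.99 ± 0.26, adjusted p = 0.00106), the protocadherin gene Pcdh12 (-2.01 ± 0.31, adjusted p = 0.00274) and Tgm4 (-2.05 ± 0.38, adjusted p = 0.0456). Nrk stood at 8.21, 7.75 and 7.58 CPM in young and 1.08, 1.23 and 2.1 CPM in old libraries, without overlap. Tgm4 encodes the transglutaminase secreted by the prostate epithelium, and stood at 73.1, 60.3 and 113 CPM in young and 29.5, 15.3 and 14.4 CPM in old stromal libraries. Beside it, the 7 prostate secretory genes summed, as CPM of the total, to 194, 392 and 494 in young and 235, 109 and 56.1 in old libraries, with at least 5260 in every luminal library, and the part of epithelial RNA in the fall of Tgm4 was not tested. Hist1h2bg was lost without young library 2 (0.0657) and Tgm4 up to 0.107 without young library 1, while Nrk, Fam150b and Pcdh12 held.

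Secreted signals changed in several pathways. Of 40 tested Wnt genes, 5 rose and 1 fell, with a median of 0.18. The rises included 3 secreted antagonists: Sfrp2, from 138, 135 and 160 CPM in young to 253, 292 and 253 CPM in old libraries (0.88 ± 0.12, adjusted p = 0.00164), then Dkk3, from 56.3, 57.1 and 52.3 to 85.4, 93.4 and 100 CPM (0.75 ± 0.11, adjusted p = 0.00263), and Frzb (1.71 ± 0.42, adjusted p = 0.0361). The ligand gene Wnt4 (0.72 ± 0.17, adjusted p = 0.029) and the receptor gene Fzd5 (0.52 ± 0.13, adjusted p = 0.0355) also rose and the co-receptor gene Lrp5 fell (-0.52 ± 0.13, adjusted p = 0.0375). Sfrp2 and Dkk3 did not overlap between ages and held, and the other 4 were lost in 1 or more refits, with the highest adjusted p in parentheses for Frzb (0.156 without young library 2), Wnt4 (0.122 without old library 1), Fzd5 (0.133 without old library 1) and Lrp5 (0.153 without young library 2). The list had 2 higher members without old library 1, 3 without young library 1 and 2 without young library 2, and 4 lower members without old library 2. It had 1 higher and 0 lower when all 14 libraries were fitted together, and 2 higher and 0 lower on TPM values.

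Of 22 tested BMP genes, 6 rose and 0 fell, although the median was -0.07 and 12 values were negative. The ligand genes Bmp3 (1.40 ± 0.27, adjusted p = 0.0111), Bmp2 (0.54 ± 0.13, adjusted p = 0.0325) and Bmp4 (0.61 ± 0.15, adjusted p = 0.0386), the signal transducer Smad9 (1.2 ± 0.25, adjusted p = 0.0166) and the target genes Id4 (0.75 ± 0.14, adjusted p = 0.00908) and Id1 (0.68 ± 0.17, adjusted p = 0.0473) were the 6. Id4 stood at 29.7, 27 and 27.5 CPM in young and 42, 44.1 and 56.3 CPM in old libraries, without overlap. Bmp3 held, and the count was 3 without old library 1, old library 3 or young library 1, 1 without young library 2 and 4 without young library 3. It was 0 when all 14 libraries were fitted together, and on TPM values 2 rose and 1 fell. The highest adjusted p over refits is in parentheses for Bmp2 (0.168 without young library 2), Bmp4 (0.175 without young library 2), Smad9 (0.0785 without young library 2), Id4 (0.0513 without young library 2) and Id1 (0.158 without young library 2).

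For insulin-like growth factors, 17 tested, 3 fell and 1 rose. Igf1 stood at 724, 886 and 745 CPM in young and 335, 499 and 228 CPM in old libraries (-1.15 ± 0.25, adjusted p = 0.039), and the IGF-binding protein protease gene Pappa fell (-0.78 ± 0.14, adjusted p = 0.00596) as did the receptor gene Igf2r (-0.54 ± 0.12, adjusted p = 0.026), while Igf2 rose (0.81 ± 0.18, adjusted p = 0.026). Pappa held, and Igf1 was lost without 4 of the libraries, up to 0.129 without old library 1. Igf2r and Igf2 passed in 1 of 6 refits each, with a highest adjusted p of 0.129 without young library 2 and 0.114 without young library 2. Without any 1 young library the list had 1 lower and 0 higher members, and likewise when all 14 libraries were fitted together.

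Other pathways gave 1 to 5 calls each, and of the genes named here Stc1 and Pdgfra also passed when all 14 libraries were fitted together. Notch genes (14 tested) had a fall of the target Heyl, from 29, 36.6 and 40.4 to 11.8, 18.1 and 15.5 CPM (-1.22 ± 0.18, adjusted p = 0.00249), and rises of the ligand gene Dll1 (1.11 ± 0.24, adjusted p = 0.0215) and of Notch1 (0.53 ± 0.12, adjusted p = 0.0275). Hedgehog genes (11 tested) had a rise of the target and effector Gli1 (0.58 ± 0.12, adjusted p = 0.0171). The FGF genes (17 tested) had a fall of Fgf10 (-0.56 ± 0.12, adjusted p = 0.0214), a stromal growth factor for epithelium. In the list of PDGF, VEGF and angiogenesis genes (24 tested), Stc1 and Vegfa (0.67 ± 0.17, adjusted p = 0.0409) rose and Stc2 (-1.67 ± 0.30, adjusted p = 0.00782), Pdgfra (-0.70 ± 0.15, adjusted p = 0.0173) and Kdr (-1.10 ± 0.24, adjusted p = 0.0359) fell. Gli1 and Fgf10 were lost without young library 2 (0.119 and 0.108), Dll1 without old library 3 (0.0858), Notch1 without old library 1 (0.103), and Pdgfra and Kdr without young library 2 (0.114 and 0.14), among other libraries. Of these genes, Heyl, Stc1 and Stc2 held, and Vegfa passed only without old library 2, with 0.174 without old library 1.

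Genes of steroid signalling changed in both directions. Among 16 tested, Srd5a1, which makes dihydrotestosterone from testosterone, fell from 10.9, 9.04 and 9.40 to 3.11, 4.66 and 3.28 CPM (-1.41 ± 0.24, adjusted p = 0.00566). The mineralocorticoid receptor gene Nr3c2 rose from 10.7, 9.47 and 12.6 to 21.8, 22.8 and 26.9 CPM (1.12 ± 0.17, adjusted p = 0.00263). The groups did not overlap for either gene, and both calls held. Fkbp4, a co-chaperone of steroid receptors, fell (-0.81 ± 0.19, adjusted p = 0.0343) and Aldh1a1, of retinoid synthesis, rose (0.68 ± 0.16, adjusted p = 0.026). The oestrogen receptor gene Esr1 stood at 47.1, 48.6 and 44.8 CPM (young) and 43.4, 46.2 and 40.8 CPM (old; -0.11 ± 0.12, adjusted p = 0.66) and did not pass. Fkbp4 and Aldh1a1 were lost in refits, up to 0.12 and 0.124 without young library 2.

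Antigen presentation genes were partly higher, with 5 of 16 tested that rose, 0 that fell and a median of 0.63. These were the class I genes H2-K1, at 273, 356 and 366 CPM in young and 488, 494 and 571 CPM in old libraries (0.64 ± 0.14, adjusted p = 0.0231), and H2-T23 (0.62 ± 0.14, adjusted p = 0.0218), the class I activator gene Nlrc5 (0.91 ± 0.21, adjusted p = 0.0345), and the class II genes H2-Ab1 (1.55 ± 0.34, adjusted p = 0.0215) and H2-Eb1 (1.36 ± 0.35, adjusted p = 0.0429). The count was 2 without old library 1 or old library 3, 0 without young library 1, 1 without young library 2, 3 on TPM values or at a mean of at least 5 CPM and 1 when all 14 libraries were fitted together. The highest adjusted p over refits is in parentheses for H2-K1 (0.0864 without young library 2), H2-T23 (0.129 without young library 2), Nlrc5 (0.105 without young library 3), H2-Ab1 (0.0768 without young library 1) and H2-Eb1 (0.154 without old library 1). Beside them, the macrophage marker sum was 16.9 to 25.9 CPM of the total in young and 28.0 to 45.2 in old libraries, and the T or NK cell sum 13.2 to 16.3 and 18.4 to 24.5. Whether such cells account for the class II transcripts was not tested.

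Interferon response genes gave 0 calls of 26 tested by edgeR, although all 26 values were positive with a median of 0.61, and DESeq2 called 1. Ifit1 stood at 76.2, 106 and 217 CPM in young and 243, 212 and 959 CPM in old libraries (1.83 ± 0.85, adjusted p = 0.337). Old library 3 was far above the rest and old libraries 1 and 2 lay near young library 3. Without old library 3 the median was 0.20, and without old library 2 the list had 4 higher members. Of 20 tested chemokines, Cxcl12, which holds leukocytes and stem cells in tissues, rose from 206, 226 and 253 to 314, 374 and 341 CPM (0.58 ± 0.13, adjusted p = 0.0215) and Cx3cl1 rose (0.67 ± 0.14, adjusted p = 0.0191). Both were lost without young library 1 (0.0793 and 0.072) and without young library 2 (0.12 and 0.0592). Of 13 tested complement genes, 1 rose and 1 fell, with a median of 0.05. The gene that rose, C2, went from 33.8, 44.8 and 41.4 to 76.9, 107 and 82.2 CPM (1.15 ± 0.15, adjusted p = 0.00107) and held. The complement list had 0 lower members without old library 1, young library 1 or young library 2.

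Lipid genes changed in both directions. Lpl, the lipase that frees fatty acids from lipoproteins, fell from 121, 124 and 120 CPM in young to 55.1, 51 and 39.7 CPM in old libraries (-1.32 ± 0.13, adjusted p = 0.000128). Apoe, a carrier of cholesterol and other lipids, rose from 341, 418 and 462 to 832, 756 and 858 CPM (1.00 ± 0.15, adjusted p = 0.00202). Apod, another lipid carrier, stood at 1009, 1049 and 1063 CPM (young) and 2126, 2481 and 1381 CPM (old; 0.94 ± 0.19, adjusted p = 0.0167), with old library 3 the lowest of the old. In all, 3 of 23 tested genes of fatty acid handling rose (Apoe, Apod and the triglyceride enzyme gene Dgat2, 0.96 ± 0.17, adjusted p = 0.00723) and 2 fell (Lpl and Scd1, -0.61 ± 0.15, adjusted p = 0.0391). Of 17 cholesterol synthesis genes 3 fell and 0 rose, with a median of -0.43, and they include the master regulator Srebf2 (-0.55 ± 0.12, adjusted p = 0.0171) and Fdps (-0.84 ± 0.22, adjusted p = 0.0496). The calls of Lpl, Apoe and Dgat2 held, and Apod reached 0.0808 without young library 2. Scd1 reached 0.169 without old library 1, Srebf2 0.0914 without old library 1 and Fdps, which passed in 0 of 6 refits, 0.164 without young library 1. The cholesterol list had 0 calls without old library 1, young library 2 or young library 3, and 1 without old library 3 or when all 14 libraries were fitted together. The adipocyte markers other than Lpl were low, with Fabp4 at 1.19, 2.58 and 0.982 CPM in young and 1.79, 2.45 and 3.15 CPM in old libraries.

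In the cell cycle list, 2 of 22 tested fell and 0 rose. Ccnd2, cyclin D2, stood at 271, 281 and 303 CPM in young and 129, 157 and 148 CPM in old libraries (-0.98 ± 0.12, adjusted p = 0.000754), and the proliferation marker Mki67 at 13.9, 10.3 and 19.2 CPM (young) and 5.38, 9.44 and 5.11 CPM (old; -1.12 ± 0.28, adjusted p = 0.0449). Ccnd2 held, and Mki67 was lost without 4 of the libraries, up to 0.159 without old library 1. Glutathione and oxidative stress genes gave 3 rises of 27: Gstt1 (0.73 ± 0.15, adjusted p = 0.0146), Gsta4 (1.19 ± 0.26, adjusted p = 0.0209) and Gclc (0.53 ± 0.13, adjusted p = 0.0351). Glycolysis and hypoxia genes gave 3 rises of 24: Bnip3, which held (0.87 ± 0.16, adjusted p = 0.00907), Slc2a3 (0.63 ± 0.16, adjusted p = 0.0474) and Vegfa. The glutathione list had 1 rise without old library 3, young library 1 or young library 2, and the glycolysis list had 4 rises without old library 2 and 1 in each other refit. The highest adjusted p over refits is in parentheses for Gstt1 (0.0782 without young library 2), Gsta4 (0.0978 without young library 2), Gclc (0.129 without old library 1) and Slc2a3 (0.161 without young library 2).

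Among 28 tested homeobox and developmental factors, 5 rose, Hoxd8 (0.85 ± 0.18, adjusted p = 0.0189), Hoxd11 (0.74 ± 0.19, adjusted p = 0.0424), Hoxd13 (0.41 ± 0.11, adjusted p = 0.0495), Twist1 (0.51 ± 0.12, adjusted p = 0.0276) and Sox9 (0.58 ± 0.15, adjusted p = 0.0439), with a median of 0.41, and 0 rose without old library 1 or young library 2 and 1 without old library 3 or young library 1. None rose on TPM values or when all 14 libraries were fitted together, and the highest adjusted p over refits is in parentheses for Hoxd8 (0.0622 without young library 1), Hoxd11 (0.169 without young library 2), Hoxd13 (0.161 without young library 2), Twist1 (0.133 without young library 2) and Sox9 (0.197 without young library 2).

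The stromal age change was also set against the mean age change of both luminal sorts, in a single test of the difference over all 14 libraries. Of 15255 genes, 158 (1.04%) passed, 70 (0.459%) with a higher and 88 (0.577%) with a lower value in stroma, and 58 of them also passed the stromal test. Ccnd2 had the smallest adjusted p among the named genes. It fell in stroma as given above, while the old luminal libraries all lay above the young libraries of the same sort. It stood at 2.93 and 2.92 CPM in young and 15.7 and 11.7 in old libraries of Trop2-negative cells and at 19.9 and 13 CPM in young and 46.7 and 43.9 in old libraries of Trop2-positive cells. The difference was -2.83 ± 0.22, adjusted p = 9.69e-06. Fras1, a matrix protein at the border of epithelium and stroma, fell in stroma from 12.9, 17.1 and 20.5 to 7.53, 9.19 and 8.39 CPM and stood at 1.85 and 0.912 CPM in young and 4.6 and 5.24 in old libraries of Trop2-negative cells and at 22.4 and 20.2 CPM in young and 56.2 and 40.8 in old libraries of Trop2-positive cells, with a difference of -2.50 ± 0.34, adjusted p = 0.00231. Ret differed by -2.95 ± 0.36, adjusted p = 0.000933, with levels of 5.39 and 5.65 CPM in young and 8.83 and 8.84 in old libraries of Trop2-negative cells and 8.62 and 11.7 CPM in young and 8.65 and 10.6 in old libraries of Trop2-positive cells. Tested against 1 luminal sort alone, 190 genes passed for Trop2-negative cells, 100 of them among the 158, and 39 for Trop2-positive cells, 31 of them among the 158.

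In the other direction, Tuba4a, an alpha tubulin, rose in stroma from 13.2, 22.7 and 20.5 to 70.6, 51.5 and 67.7 CPM (1.76 ± 0.20, adjusted p = 0.000754) and stood at 130 and 127 CPM in young and 69 and 108 in old libraries of Trop2-negative cells, with young libraries above old libraries of Trop2-positive cells as well (difference 2.16 ± 0.27, adjusted p = 0.00115). The transcription factor gene Atoh8 rose in stroma from 7.89, 8.32 and 12.8 to 24.4, 19.6 and 18.5 CPM (1.12 ± 0.21, adjusted p = 0.00937) and stood at 2.31 and 2.19 CPM in young and 0.373 and 0.300 in old libraries of Trop2-negative cells and at 3.06 and 8.91 CPM in young and 1.64 and 1.79 in old libraries of Trop2-positive cells (difference 3.32 ± 0.54, adjusted p = 0.00888). For Eln, Stc1 and Thy1 the luminal levels were at most 4.93 CPM in any library, and their differences did not pass (adjusted p = 0.971, 0.184 and 0.452). Col4a1 stood at 19.7 and 12.6 CPM in young and 2.61 and 7.49 in old libraries of Trop2-negative cells and at 25.7 and 19.3 CPM in young and 9.54 and 9.21 in old libraries of Trop2-positive cells, and its difference was 0.16 ± 0.35, adjusted p = 0.925. In the stromal test, Ccnd2, Ret and Tuba4a held, Atoh8 reached 0.0554 and Fras1 0.0653 without young library 2. Without each stromal library in turn, 63 to 120 genes passed, 81 without old library 1, 88 without old library 3, 85 without young library 1, 63 without young library 2 and 98 without young library 3.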

How the data were processed

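RNA from sorted prostate cells was sequenced from KAPA stranded mRNA libraries. Per the submitters' processing notes, bcl2fastq 2.17, Bowtie2 2.1.0, RSEM 1.2.15 and the GRCm38 build were used. The deposited tables hold the authors' expected counts, estimated by RSEM, and TPM per gene. Whether strand was used in counting is not given in the sources used here. Reads of overlapping antisense genes therefore cannot be told apart.

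Expected counts were rounded. Genes kept by filterByExpr were tested in the 6 stromal libraries with edgeR 4.0.16 in R 4.3.3 (TMM scaling, robust quasi-likelihood test, Benjamini-Hochberg adjustment over all 13890 genes, threshold 0.05). SE is the log2 change over the square root of F. The difference from luminal cells was fitted over all 14 libraries. Alternatives used limma 3.58.1, with log2(TPM + 1) for the authors' TPM, and DESeq2 1.42.0. The edgeR script was tested on simulated data. Intervals and floors cover counting error only. A floor is 3 counts.

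Named genes were the 4 markers, the 15 largest changes each way with at least 5 CPM in 1 age, the 12 smallest adjusted p, the 8 largest differences from luminal cells each way, and up to 5 called and 2 uncalled genes per list. Some genes that this rule takes are not reported here. Other genes named were chosen after their values were seen. The 57 lists and the members were chosen with earlier results of these data known, and 3 lists were added later. In their deviations from the age mean, same-numbered old and young libraries correlated by 0.034 to 0.076 and differently numbered ones by -0.152 to 0.091. With 3 libraries per age these values cannot decide whether the numbers pair the libraries. The main fit did not pair them.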

Additional observations from a re-analysis of the deposited data

Results flagged for a closer look

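The 15 genes here had a stromal age change that differed from the mean luminal age change by the test of that difference, and they are among the 8 largest differences each way that also passed the stromal test. Those with a higher value in stroma were Atoh8 (log2 difference 3.32 ± 0.54, adjusted p = 0.00888), Apod (2.67 ± 0.48, adjusted p = 0.0253), Mdga2 (2.65 ± 0.59, adjusted p = 0.0404), Ptger3 (2.60 ± 0.50, adjusted p = 0.0194), Dach2 (2.57 ± 0.47, adjusted p = 0.016), Rapgef5 (2.41 ± 0.43, adjusted p = 0.0137), Tuba4a (2.16 ± 0.27, adjusted p = 0.00115) and Kank4 (1.88 ± 0.35, adjusted p = 0.0167). Kank4 rose in stroma from 8.21, 4.88 and 5.19 to 11.6, 12.5 and 17.2 CPM and stood at 2.31 and 4.19 CPM in young and 2.99 and 3.30 in old libraries of Trop2-negative cells and at 49.1 and 44.1 CPM in young and 18 and 16.5 in old libraries of Trop2-positive cells.

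Those with a lower value in stroma were Plxna4 (-3.23 ± 0.55, adjusted p = 0.0126), Ret (-2.95 ± 0.36, adjusted p = 0.000933), Fam20a (-2.94 ± 0.56, adjusted p = 0.0179), Zfp57 (-2.89 ± 0.61, adjusted p = 0.0299), Ccnd2 (-2.83 ± 0.22, adjusted p = 9.69e-06), Igf2bp2 (-2.77 ± 0.46, adjusted p = 0.0103) and Fras1 (-2.50 ± 0.34, adjusted p = 0.00231). Plxna4, a semaphorin receptor gene, fell in stroma from 13.6, 8.90 and 9.82 to 6.81, 4.54 and 3.67 CPM and stood at 12.5 and 8.75 CPM in young and 44.3 and 42.7 in old libraries of Trop2-negative cells and at 2.64 and 0.810 CPM in young and 3.58 and 12.7 in old libraries of Trop2-positive cells. Igf2bp2, an RNA-binding protein gene, fell in stroma from 29.5, 33.3 and 25.4 to 11, 11.6 and 9.18 CPM and stood at 0.462 and 1.28 CPM in young and 1.74 and 4.5 in old libraries of Trop2-negative cells and at 25 and 11.8 CPM in young and 28.3 and 33.8 in old libraries of Trop2-positive cells.

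In the stromal test, the calls of some of these genes were lost in 1 or more refits, with the highest adjusted p in parentheses. These were Kank4 (0.0822 without young library 2), Plxna4 (0.116 without young library 1), Fam20a (0.118 without old library 3) and Zfp57 (0.076 without young library 1). Atoh8 (0.0554), Apod (0.0808) and Fras1 (0.0653) were lost without young library 2, and Dach2 (0.0839) without young library 1. The calls of Mdga2, Ptger3, Rapgef5, Tuba4a, Ret, Ccnd2 and Igf2bp2 held.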

How the results depend on the processing

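The 662 stromal calls kept their direction under every setting that gave them a value. Limma on log2(TPM + 1) gave 418 calls, 154 of them higher, with the median of all genes at -0.079. Fitting all 14 libraries together gave 200 calls (101 higher, 99 lower, 98 over 2-fold). In that fit the lists of matrix proteases, axon guidance, FGF, Hedgehog and Notch genes had 0 calls, those of collagen processing, glutathione, glycolysis, chemokine, cell cycle and integrin genes had 1 each, and that of fatty acid handling had 1 higher and 1 lower. Leaving out 1 stromal library at a time gave 214 to 1089 calls, 119 to 562 higher, 95 to 527 lower and 129 to 372 over 2-fold. RLE scaling (659), library totals only (629, 59.9% higher), DESeq2 (780), voom (596), no filter on low counts (866) and a mean of at least 5 CPM (594) stayed within 1.5 times. With the replicate number as a block there were 918 calls, 504 higher and 414 lower, and 189 for the difference from luminal cells. Whether the numbers pair the libraries could not be decided, and not every library correlated best with its own number. That difference gave 46 higher genes by voom, 39 genes (13 higher, 26 lower) against Trop2-positive cells alone, and 63 to 120 (28 to 56 higher, 35 to 64 lower) without 1 stromal library. The cause of these shifts was not tested, and each refit without a library also had fewer libraries. With 3 libraries per age, genes near the floor of 0.336 to 0.419 CPM were measured least precisely.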

Other observations

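Several gene groups had no member that passed the stromal test by edgeR. Of 21 genes of senescence and its secreted factors, 0 passed, with a median log2 change of 0.09, while DESeq2 called 3 of that list (2 higher and 1 lower). The 17 NF-kB targets had a median of 0.06 and the 21 TGF-beta and activin genes 0.02, with 0 calls each. All 36 ribosomal protein genes missed the threshold, although 35 values were positive, with a median of 0.17. The 28 respiratory chain genes had a median of -0.07 and the 23 muscle contraction genes 0.21, again with 0 calls. Across all 13890 genes, 2827 had an unadjusted p under 0.05.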
